A study of Mus musculus with 48 samples.

Results

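The genes described here are 9 neural progenitor and striatal identity genes, Nes, Vim, Sox2, Pax6, Dlx1, Dlx2, Foxp1, Bcl11b and Ppp1r1b, chosen by name from the 27281 rows of an RNA-Seq abundance table. The table covers 48 samples in 16 conditions with 3 samples each. All samples are conditionally immortalized murine striatal progenitor cells on a C57BL/6 background, and 1 purchased cell line stands for each genotype, so that the line and the genotype cannot be told apart. STHdhQ7 cells carry wild-type huntingtin, the gene mutated in Huntington's disease. STHdhQ111 cells are homozygous for a knock-in of mutant huntingtin. Both lines were held in serum-free medium for 24 hours, STHdhQ7 cells with vehicle and STHdhQ111 cells with vehicle or 1 of 14 compounds. The labels give the doses. Diacylglycerol kinase inhibitor II (DKI), meclizine, selisistat, loxapine and cyproheptadine were used at 10 µM, pizotifen at 5 µM and cysteamine at 250 µM. 4-Deoxypyridoxine (DOP) was used at 4 mM and sodium butyrate at 1 mM. Fingolimod phosphate was given at 250 nM, trichostatin A at 10 nM, nortriptyline at 1 nM, and nicotinamide and haloperidol at 0.5 nM. The study's methods name DMSO as the vehicle and dissolve the compounds in DMSO or water, without saying which compound was in which. The 3 samples of a condition were collected on days 1, 2 and 3, or for cyproheptadine and DKI on days 2 and 3, and beyond that the labels do not describe separate cultures, so p-values measure the spread between these samples of 1 line.

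The developing striatum arises from ventral telencephalic progenitors, which are marked by intermediate filaments such as nestin and by SOX transcription factors, and in which DLX homeodomain proteins drive the differentiation of GABAergic neurons. PAX6 marks mainly the neighbouring dorsal, cortical progenitors. As striatal projection neurons, called medium spiny neurons, mature, they express the transcription factors FOXP1 and BCL11B and then DARPP-32, the product of Ppp1r1b, which relays dopamine signals.

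The values are normalized abundances on a log2 scale in which genes of low abundance hardly vary, so that a low gene's log2 difference is compressed and its linear fold is understated. Over genes with a mean below 0 the median SD across all samples was 0.0065, and over genes with a mean between 5 and 10 it was 0.145. Depth per sample is unknown. Of the 9 genes, 8 reached the minimum mean of 1 that was set for testing, along with 13409 genes in all, and Bcl11b, with a mean of 0.18, did not. Tests were limma fits over all 48 samples with the collection day as a term, and a gene was called at a Benjamini-Hochberg adjusted p under 0.05 over all genes tested.

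One sample stood apart. Haloperidol replicate 2 had a Nes abundance of 7.14, while the other haloperidol samples had 4.88 and 5.03. Its Sox2 abundance was 5.92 beside 4.99 and 4.97, and its Pax6 abundance was 3.92 beside 3.04 and 2.80. For these 3 genes it was the highest of the 45 STHdhQ111 samples. Over the 26 called genes that were more than 3 log2 units higher in STHdhQ7 than in STHdhQ111 vehicle cells, Nes and Sox2 among them, the same sample was the highest of the 45 for 24. Its median difference from the STHdhQ111 vehicle mean over those 26 genes was 1.49, while the medians of the other 44 samples ran from -0.24 to 0.24. On the linear scale its median position was 6.40% of the way from the STHdhQ111 to the STHdhQ7 vehicle mean, and that of the other samples ran from -0.309% to 0.731%. The cause was not tested. Most values that rest on this sample are given with and without it.

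**Figure D1:**
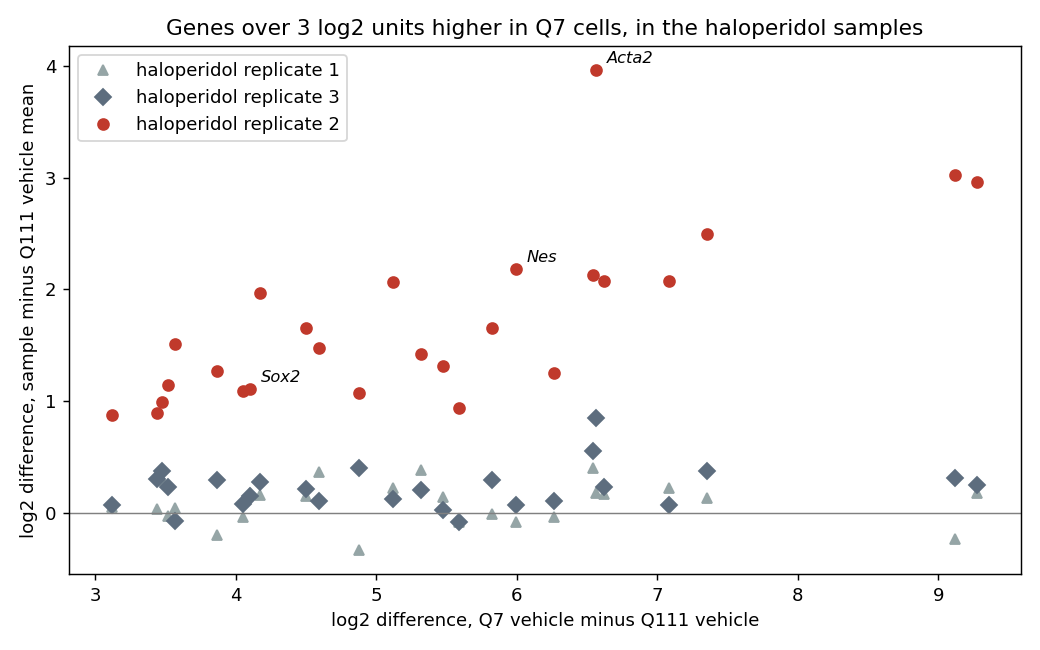
Each point is 1 of the 26 genes more than 3 log2 units higher in STHdhQ7 cells, with the log2 difference between the vehicle controls on the x axis and the log2 difference of 1 haloperidol sample from the STHdhQ111 vehicle mean on the y axis. Replicate 2 (circles) lies above replicates 1 and 3 for all 26 genes, with Nes 2.18 and Sox2 1.11 above the vehicle mean.

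The mapped positions, from GENCODE annotation of GRCm38, place Nes at chr3:87971078-87980451 and Sox2, which has 1 exon, at chr3:34650405-34652461, both on the plus strand. Vim lies at chr2:13573927-13582826 and Pax6 at chr2:105668900-105697364, also on the plus strand. Dlx1 at chr2:71528113-71533981 (plus) and Dlx2 at chr2:71543408-71546754 (minus) are neighbours with 9426 bases between them. Foxp1 spans chr6:98925338-99522721 and Bcl11b chr12:107910403-108003602, both on the minus strand, and Ppp1r1b lies at chr11:98348404-98357796 on the plus strand. Exons of Dlx1 overlap those of the antisense gene Dlx1as, exons of Ppp1r1b overlap 1700003D09Rik on the opposite strand, and exons of Foxp1 overlap Gm20696 on the same strand, so their values are uncertain to the extent that the authors' quantification divided reads between these pairs. The library kit keeps strand, and whether the quantification used it is not given in the sources used here.

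The first comparison asks how the wild-type and mutant lines differ in these genes. Nes, Sox2 and Pax6 were far higher in STHdhQ7 cells, Foxp1 was lower, and Vim was slightly higher. Dlx1, Dlx2 and Ppp1r1b did not pass the test. The count of 5 called among the 8 tested is to be read against 55.8% of all genes called in this comparison, 29.2% higher and 26.6% lower, so it does not set these genes apart, while a difference as large as those of the first 3 was less common, since 0.559% of genes were called and more than 2 log2 units higher and 0.194% more than 3. For the 5 called genes the samples of the groups did not overlap, which held for 58.2% of all genes tested. In bulk samples, fewer cells of a type and less RNA per cell cannot be told apart.

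Nes encodes nestin, the intermediate filament protein of neural stem and progenitor cells. Its abundance in STHdhQ7 vehicle samples was 9.93, 11.27 and 11.66, and in STHdhQ111 vehicle samples 5.20, 4.97 and 4.72. The groups were far apart, and STHdhQ7 replicate 1 was well below the other 2. The log2 difference was 5.99 ± 0.34 (SE, n = 3 against 3; limma adjusted p = 4.62e-18), a 63.7-fold difference on the scale of the table and rank 9 among the rises of 13409 genes. Within collection days 1, 2 and 3 it was 4.73, 6.30 and 6.94.

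Sox2 encodes an HMG-box transcription factor that keeps progenitors undifferentiated. Its abundance was 8.41, 9.34 and 8.99 in STHdhQ7 and 4.84, 4.81 and 4.79 in STHdhQ111 vehicle samples, again with replicate 1 lowest of the STHdhQ7 samples and with no overlap. The log2 difference was 4.10 ± 0.17 (limma adjusted p = 7.09e-22), 17.2-fold and rank 19 among the rises. Pax6 encodes a paired-box and homeodomain transcription factor. Its abundance was 5.32, 5.50 and 5.39 in STHdhQ7 and 2.83, 2.73 and 2.88 in STHdhQ111 vehicle samples, which left a clear gap, with the STHdhQ7 samples close together. The log2 difference was 2.59 ± 0.14 (limma adjusted p = 1.34e-18), 6.03-fold and rank 34.

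Nes, Sox2 and Pax6, which shared this direction, are shown with the 250 bases before their RefSeq start (build GRCm38.p6, plus strand, 5′ to 3′), because they differed most between the lines. The windows are chr3:87970843-87971092 for Nes, chr3:34649745-34649994 for Sox2 and chr2:105668646-105668895 for the upstream of the Pax6 entries. Capitals mark GC boxes (GGGCGG, or CCGCCC on the other strand) and CCAAT boxes (CCAAT or ATTGG).
Nes: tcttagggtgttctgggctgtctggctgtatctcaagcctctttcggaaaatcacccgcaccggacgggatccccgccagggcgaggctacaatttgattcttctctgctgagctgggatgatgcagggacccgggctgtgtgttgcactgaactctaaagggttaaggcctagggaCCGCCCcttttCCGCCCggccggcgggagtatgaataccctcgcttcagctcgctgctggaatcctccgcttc
Sox2: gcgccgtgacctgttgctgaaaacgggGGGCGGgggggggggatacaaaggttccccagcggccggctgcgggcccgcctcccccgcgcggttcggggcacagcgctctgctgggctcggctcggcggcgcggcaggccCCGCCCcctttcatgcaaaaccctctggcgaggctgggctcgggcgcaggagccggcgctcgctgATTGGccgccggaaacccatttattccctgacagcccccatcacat
Pax6: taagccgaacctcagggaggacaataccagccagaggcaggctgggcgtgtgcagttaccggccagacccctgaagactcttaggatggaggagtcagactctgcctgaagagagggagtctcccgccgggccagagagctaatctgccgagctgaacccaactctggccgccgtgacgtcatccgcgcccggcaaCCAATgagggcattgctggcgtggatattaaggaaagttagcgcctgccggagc
The Nes window held 2 GC boxes, the Sox2 window 2 GC boxes and 1 CCAAT box, and this Pax6 window 1 CCAAT box. Of 32851 promoter windows of the same length, 32.7% held a GC box and 33.8% a CCAAT box, so neither is unusual. The letters TGGGAA, the core bound by the Notch effector RBPJ, were on either strand in 21.6% of all windows and in none of these 3. CpG dinucleotides numbered 15 for Nes, 27 for Sox2 and 15 for Pax6, against a median of 6 over all windows. Of the 9 genes, 8 had an entry in this RefSeq table, with 11 windows in all.

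Vim encodes vimentin, an intermediate filament protein of progenitors and of mesenchymal cells, and was the most abundant of the 9 with a mean above 99.98% of the genes with a symbol. Its STHdhQ7 vehicle samples had 15.54, 15.62 and 15.63 and its STHdhQ111 vehicle samples 15.38, 15.38 and 15.51, a narrow gap between the groups. The log2 difference was 0.17 ± 0.074 (limma adjusted p = 0.0452). This call was lost in 6 of 14 alternatives, with adjusted p = 0.256 at most, when only the 6 samples compared were fitted.

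Foxp1, a forkhead transcription factor of medium spiny neurons and other neurons, was the gene of the 9 called lower in STHdhQ7 cells. Its abundance was 8.90, 9.33 and 9.39 in STHdhQ7 and 10.09, 9.98 and 9.89 in STHdhQ111 vehicle samples, with no overlap and replicate 1 lowest. The log2 difference was -0.78 ± 0.076 (limma adjusted p = 2.56e-11), and within collection days 1, 2 and 3 it was -1.19, -0.65 and -0.51.

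Dlx1 and Dlx2 encode homeodomain transcription factors of the ventral forebrain. Dlx1 had 5.89, 5.98 and 6.10 in STHdhQ7 and 5.90, 5.82 and 5.80 in STHdhQ111 vehicle samples, and Dlx2 had 5.14, 5.37 and 5.40 against 5.44, 5.45 and 5.36. The groups overlapped for both genes. The difference was 0.15 for Dlx1 (95% interval 0.0069 to 0.298, limma adjusted p = 0.0694) and -0.12 for Dlx2 (-0.275 to 0.043, limma adjusted p = 0.214). STHdhQ7 replicate 1 was the lowest of the 3 for 8 of the 9 genes, and without it the Dlx1 difference was 0.20 with a limma adjusted p of 0.0294. The share over all genes was not taken, so that count does not set the replicate apart for these genes.

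Ppp1r1b and Bcl11b mark mature medium spiny neurons and had the lowest values of the 9 in the table. Whether these values are scaled to gene length is not given in the sources used here. Ppp1r1b, which encodes the phosphatase inhibitor DARPP-32, had 1.97, 2.15 and 2.02 in STHdhQ7 and 1.98, 1.89 and 1.91 in STHdhQ111 vehicle samples, with overlap and a difference of 0.12 (limma adjusted p = 0.0827, and 0.0346 without STHdhQ7 replicate 1). Bcl11b, which encodes the zinc finger factor CTIP2, had 0.26, 0.28 and 0.18 against 0.21, 0.17 and 0.17. These samples overlapped too. With no minimum mean the Bcl11b difference was 0.059 (limma adjusted p = 0.0394), at a level where the table hardly varies.

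**Figure D2:**
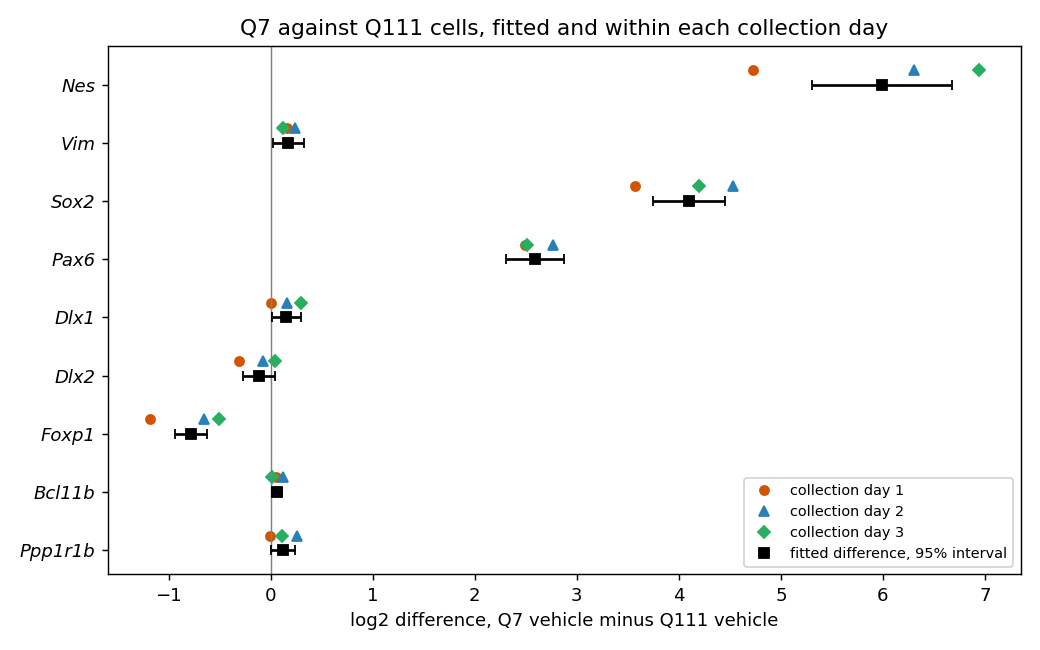
Log2 difference between STHdhQ7 and STHdhQ111 vehicle samples on the x axis for the 9 genes on the y axis. Black squares are limma estimates with 95% intervals (Bcl11b from the fit with no minimum mean), and coloured points are the differences within collection days 1, 2 and 3. Nes, Sox2 and Pax6 lie at 5.99, 4.10 and 2.59, and Foxp1 at -0.78.

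Set against all 45 STHdhQ111 samples with any treatment, the STHdhQ7 values lay outside the whole range for Nes, Sox2, Pax6 and Foxp1, as they did for 23.5% of all genes tested. STHdhQ111 samples reached at most 7.14 for Nes, 5.92 for Sox2 and 3.92 for Pax6, all 3 in haloperidol replicate 2. Without that sample the highest values were 6.34, 5.12 and 3.26. The lowest STHdhQ7 values were 9.93, 8.41 and 5.32, so no compound brought any sample to the level of the wild-type line. For Foxp1 the STHdhQ111 samples ran from 9.67 to 10.23 and the highest STHdhQ7 sample was 9.39.

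To order the genes by level, each mean was set per kilobase of the gene's merged GENCODE exons. The order assumes that the deposited values are not already scaled to gene length. It also assumes that the merged exons, which join all annotated transcripts (11.694 kb for Pax6, 13.751 kb for Foxp1), match the transcripts present. On this log2 scale per kilobase, Vim led in STHdhQ111 vehicle cells with a level of 13.18, followed by Foxp1 at 6.21, Dlx2 at 3.91, Sox2 at 3.77, Dlx1 at 3.41, Nes at 2.28, Ppp1r1b at 0.38, Pax6 at -0.73 and Bcl11b at -2.84. No neighbours in that order overlapped over their 3 samples. In STHdhQ7 vehicle cells the level was 13.35 for Vim, 8.27 for Nes, 7.87 for Sox2, 5.42 for Foxp1, 3.79 for Dlx2, 3.56 for Dlx1, 1.86 for Pax6, 0.50 for Ppp1r1b and -2.78 for Bcl11b. There Nes and Sox2 overlapped, as did Dlx2 and Dlx1. Nes stood 6th of the 9 in STHdhQ111 and 2nd in STHdhQ7 cells. By the deposited means, without the length step, Nes stood 5th and 2nd. In STHdhQ111 cells Dlx1 (3rd) then stood above Dlx2 (4th) and Pax6 (7th) above Ppp1r1b (8th), so their order rests on the exon lengths.

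Lists of related genes show how far the neural label of these lines holds in the table. Their counts are to be read against the 29.2% of all genes called higher and 26.6% called lower, and the share called was 86.7% for the progenitor, 70% for the striatal patterning, 50% for the medium spiny neuron, 75% for the pan-neuronal, 57.1% for the mesenchymal and 40% for the astrocyte genes tested, beside 55.8% of all genes. Of 20 further neural progenitor genes, 15 were tested, 10 were higher in STHdhQ7 cells, 3 were lower and 2 did not pass, with a median log2 difference of 0.43 beside 0.004 over all genes tested. The cyclin Ccnd2 rose by 2.47, the receptor Notch1 by 2.03 and the Notch target Hes1 by 1.36, while the progenitor and glial factor Sox9 differed by -1.84. The list therefore moved mostly, but not wholly, with Nes, Sox2 and Pax6. Sox1, another early neural SOX factor, sat at -2.34 in both lines, at the bottom of the table.

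Of 20 striatal patterning genes, 10 were tested, with 2 higher, 5 lower and 3 not passing, and a median of -0.13. Sp8 was higher by 1.66 and Meis2 by 1.03, and Ebf1 and Foxp2 differed by -0.68 and -0.67. The medium spiny neuron list had 21 genes, of which 6 could be tested and 11 lay under the minimum. Of the 6, the phosphodiesterase genes Pde1b and Pde10a were higher by 1.35 and 0.65 and the signalling regulator Rgs9 by 0.26, and 3 did not pass. Drd1, the dopamine receptor of the direct pathway, was at -2.18 in both lines.

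Markers of other cells were also read. Of 16 mesenchymal genes, 12 had a mean of at least 6. So had 9937 of the 13409 genes tested, and the count does not set this list apart. Fn1 (fibronectin) and Col1a1 (collagen) were at 15.3 and 14.65 in STHdhQ7 and 15.4 and 14.63 in STHdhQ111 cells. Of the 14 tested, 3 were higher in STHdhQ7 cells, with the smooth muscle genes Acta2 at 6.56 and Tagln at 2.03, 5 were lower, with Col1a2 at -2.69 and Snai2 at -1.06, and 6 did not pass. The log2 summed level of this list ran from 16.25 to 16.55 in STHdhQ7 and from 16.51 to 16.61 in STHdhQ111 vehicle samples. Of 8 pan-neuronal genes tested, 6 were higher in STHdhQ7 cells, led by Stmn2 at 2.15, Ncam1 at 1.55, Tubb3 at 1.19 and Syn1 at 0.54, and 2 did not pass. Map2, 1 of those 2, was at 8.61 in STHdhQ7 and 8.40 in STHdhQ111 cells. The neuronal markers Rbfox3 and Dcx, among 7 genes of the list under the minimum, sat at -2.13 and -1.86 in both lines. The summed level of that list ran from 10.04 to 10.71 in STHdhQ7 and from 9.27 to 9.63 in STHdhQ111 vehicle samples. For the progenitor list the ranges were 13.27 to 13.52 and 13.14 to 13.23. What these lists contribute to the differences in the 9 genes was not tested.

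Glial, endothelial and microglial lists were short. Of 5 astrocyte genes tested, Aldoc was higher in STHdhQ7 cells by 1.05 and Aldh1l1 by 0.22, and 3 did not pass. Among the 3, Gja1 was abundant at 10.44 in STHdhQ7 and 10.28 in STHdhQ111 cells. Gfap, at -0.93 in STHdhQ7 and -0.95 in STHdhQ111 cells, was the 1 gene of this list in the table under the minimum. Of 4 oligodendrocyte-lineage genes tested, Cspg4 was higher by 1.20 and Pdgfra and Mbp differed by -1.33 and -0.24. Of 4 endothelial and microglial genes tested, Ptprc, a leukocyte surface phosphatase, was called with 7.86 in STHdhQ7 and 10.59 in STHdhQ111 cells. Pecam1, at 8.08 in STHdhQ7 and 8.23 in STHdhQ111 cells, did not pass. The microglial markers Aif1 and Cx3cr1 were at -2.18 and -1.80 in STHdhQ7 cells.

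**Figure D3:**
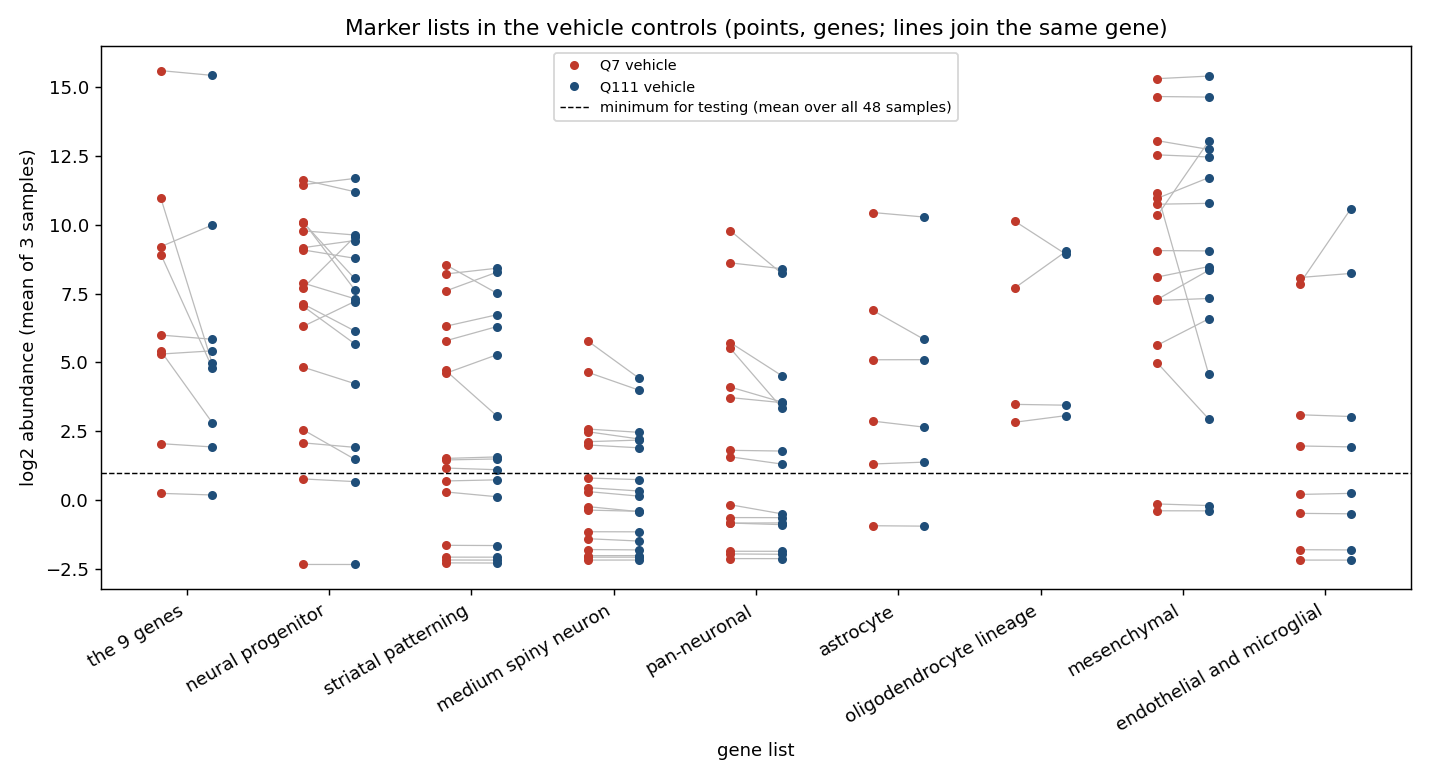
Mean log2 abundance in the STHdhQ7 (red) and STHdhQ111 (blue) vehicle samples for the 9 genes and each marker list, with a line joining the points of 1 gene. Mesenchymal genes reach 15.4, most medium spiny neuron genes lie below the dashed minimum of 1, and the steep lines among the 9 genes are Nes, Sox2 and Pax6.

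Relatives and filament partners of the 9 genes gave 9 testable genes, of which 3 were higher, 1 was lower and 5 did not pass. Synm, which encodes synemin, a filament partner of nestin and vimentin, was higher in STHdhQ7 cells by 1.33 ± 0.11, with Lmna at 0.32 and Ina at 0.18. Foxp2, the closest relative of Foxp1 on the list, moved with it at -0.67, and Foxp4 did not pass at 0.12. The DLX relatives Dlx4 and Dlx6 did not pass either, at 0.10 and -0.04.

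The second comparison asks whether any of the 14 compounds changed these genes in STHdhQ111 cells. All 14 contrasts share the same 3 vehicle samples. Of 112 pairs of a gene and a compound, 15 were called, 4 higher and 11 lower, or 13.4%, while 17% of all gene and compound pairs were called, 7.95% higher and 9.05% lower. Sodium butyrate gave 4 calls, cyproheptadine 3, DKI and loxapine 2 each, and meclizine, trichostatin A, cysteamine and DOP 1 each. The shares of all genes called were 37.5% for sodium butyrate, 35.6% for cyproheptadine, 42.3% for DKI, 21.9% for loxapine, 26.8% for meclizine, 13.1% for trichostatin A, 7.83% for cysteamine and 20.1% for DOP. With 8 genes each, none of these counts departs from its background by as many as 2 genes. The calls kept under every alternative were Nes, Dlx2 and Ppp1r1b with sodium butyrate, Dlx2 with loxapine and Vim with cyproheptadine, 5 of the 15. Leaving out STHdhQ111 vehicle replicate 1 ended 8 of the 15.

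**Figure D4:**
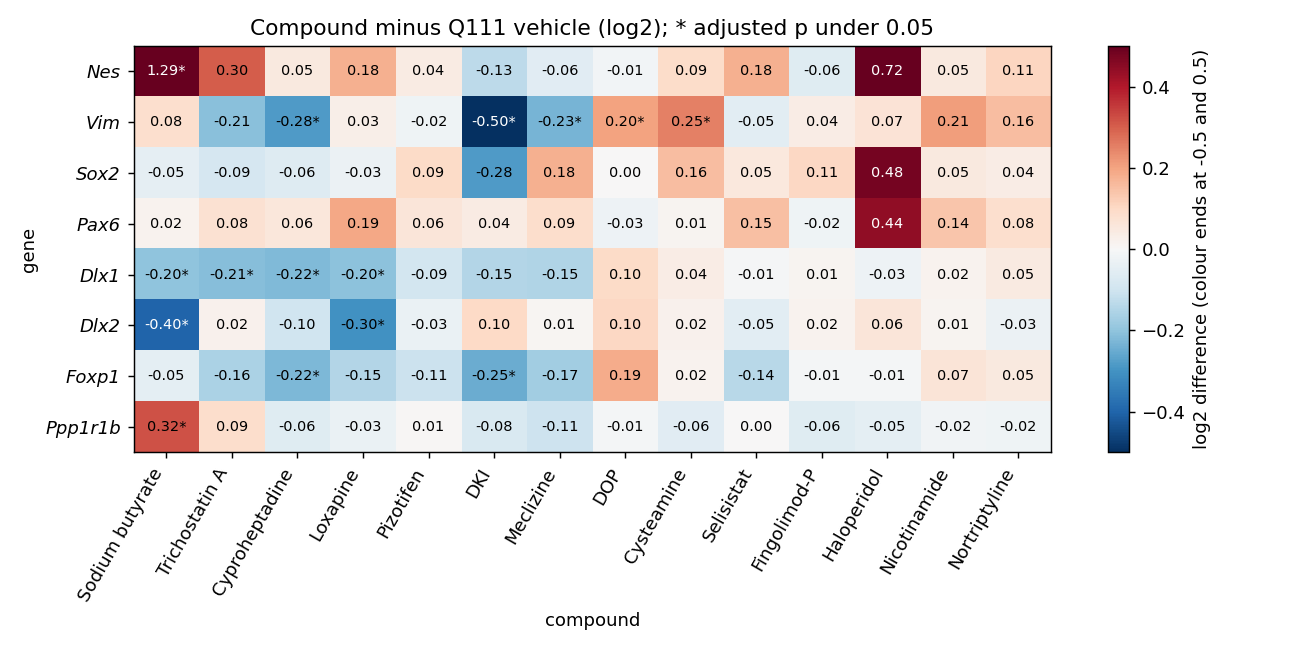
Log2 difference of each compound from the STHdhQ111 vehicle control for the 8 tested genes, with the value printed in each cell and an asterisk at an adjusted p under 0.05. Sodium butyrate (Nes 1.29, Ppp1r1b 0.32, Dlx2 -0.40) and DKI (Vim -0.50) hold the largest called values, and the haloperidol values for Nes, Sox2 and Pax6 rest largely on replicate 2.

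Sodium butyrate, a short-chain fatty acid that inhibits histone deacetylases, raised Nes in every sample. Nes was 6.34, 6.26 and 6.14 with butyrate, all above the vehicle samples at 5.20, 4.97 and 4.72 and above every other STHdhQ111 sample apart from haloperidol replicate 2. The log2 difference was 1.29 ± 0.34 (limma adjusted p = 0.0027), rank 9 among the rises of 13409 genes, and it was 1.14, 1.29 and 1.43 within collection days 1, 2 and 3. In the fit without the STHdhQ7 samples and haloperidol replicate 2, the limma adjusted p was 1.20e-07. The butyrate samples lay more than 3 log2 units below the STHdhQ7 samples.

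Ppp1r1b also rose with butyrate, to 2.14, 2.29 and 2.31 against 1.98, 1.89 and 1.91 with vehicle, by 0.32 ± 0.059 (limma adjusted p = 5.42e-05). Dlx2 fell, to 4.99, 5.00 and 5.06 from 5.44, 5.45 and 5.36, a difference of -0.40 ± 0.078 (limma adjusted p = 0.000113). For both genes the butyrate samples lay outside the vehicle range, as they did for 48.8% of all genes tested. Dlx1, the neighbour of Dlx2, had 5.60, 5.54 and 5.77 with butyrate and differed by -0.20 (limma adjusted p = 0.0261), a call lost in 4 of 15 alternatives. Sox2 and Pax6 did not pass, at -0.05 and 0.02. Of the relatives, Dlx4 rose by 0.47, Des, which encodes desmin, by 0.55 and Dlx6 by 0.11. In the marker lists butyrate gave 5 higher and 0 lower calls among 8 pan-neuronal genes and 6 higher and 0 lower among 14 mesenchymal genes, with 19.6% of all genes called higher and medians of 0.26 and 0.22 beside 0.016 over all genes, and the part of these in the butyrate values was not tested.

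Trichostatin A, another histone deacetylase inhibitor, was given at 10 nM, a dose that cannot be matched to that of butyrate. Nes was 5.59, 4.81 and 5.39 with trichostatin A, overlapping the vehicle samples, with a difference of 0.30 that did not pass. Ppp1r1b was 2.19, 1.89 and 1.96, also overlapping. Dlx1 was called at -0.21 (5.65, 5.66 and 5.57, limma adjusted p = 0.0436), a call lost in 8 of 15 alternatives, and Dlx2, at 5.40, 5.59 and 5.32, was not. As with butyrate, 5 of 8 pan-neuronal genes were called higher and 0 lower. Their median was 0.33, beside 0.004 over all genes, of which 13.1% were called in either direction. Of 14 mesenchymal genes, 1 was called higher and 1 lower with trichostatin A, with a median of -0.10.

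Vim had the widest pattern over compounds, with 3 calls lower and 2 higher. With DKI it was 14.79, 15.05 and 14.94, the lowest of any condition, against 15.38, 15.38 and 15.51 with vehicle, a difference of -0.50 ± 0.075 (limma adjusted p = 9.70e-07). Cyproheptadine, an antihistamine, gave 15.18, 15.11 and 15.13 and a difference of -0.28 (limma adjusted p = 0.00286), and meclizine, another antihistamine, gave 15.23, 15.16 and 15.19 and -0.23 (limma adjusted p = 0.0172). In all 3 conditions every sample lay below every vehicle sample, which held for 51.5%, 45.9% and 40.5% of genes in either direction. When only the samples compared were fitted, the Vim calls with DKI (limma adjusted p = 0.094) and meclizine (0.245) ended, and that with cyproheptadine was kept. Lmna, which encodes the nuclear lamins A and C, was also called lower in these 3 conditions, with differences of -0.57 for DKI, -0.28 for cyproheptadine and -0.36 for meclizine, and with trichostatin A at -0.26.

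The calls of a higher Vim, with cysteamine at 15.63, 15.69 and 15.70 and with DOP at 15.63, 15.64 and 15.61, were smaller at 0.25 and 0.20 (limma adjusted p = 0.0298 and 0.0493). The labels give a collection time for each sample, and 11 of the 14 compounds, cysteamine and DOP among them, share no collection day and time with a vehicle sample. Against nicotinamide and nortriptyline, given at nanomolar doses and collected in the same slots, the differences were 0.069 for cysteamine (limma adjusted p = 0.854) and 0.018 for DOP (limma adjusted p = 0.901). Vim in those reference conditions was itself 15.62 to 15.64 with nicotinamide and 15.53 to 15.63 with nortriptyline. The same reference left the calls of Nes, Dlx1, Dlx2 and Ppp1r1b with butyrate and of Dlx1 and Dlx2 with loxapine, with 1.21 for Nes (limma adjusted p = 0.00161). For loxapine it called Foxp1 at -0.21 (limma adjusted p = 0.0212), where the vehicle reference gave -0.15 (0.17), and Vim went from 0.03 to -0.15 with no call. For meclizine and trichostatin A the nanomolar compounds in the same slots were fingolimod phosphate and haloperidol, replicate 2 included. That reference left the calls of Vim with meclizine and of Dlx1 with trichostatin A, also without that replicate. It called Vim with trichostatin A at -0.26 (limma adjusted p = 0.00413, and 0.00731 without that replicate), which the vehicle reference did not call at -0.21. Foxp1 with meclizine was called without that replicate (-0.18, limma adjusted p = 0.0489) and not with it (0.0582).

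Loxapine, an antipsychotic, lowered both DLX genes. Dlx2 was 5.05, 5.25 and 5.04, below all vehicle samples (41.7% of genes did not overlap), with a difference of -0.30 ± 0.078 (limma adjusted p = 0.00458). Dlx1 was 5.58, 5.62 and 5.70, with -0.20 (limma adjusted p = 0.0363), a call lost in 5 of 15 alternatives. Cyproheptadine lowered Dlx1, at 5.47, 5.68 and 5.69, with a difference of -0.22 (limma adjusted p = 0.0149), and left Dlx2 at 5.39, 5.29 and 5.28 without a call. Over all conditions Dlx1 was called lower with 4 compounds and Dlx2 with 2, and neither was called higher with any. Of all gene and compound pairs, 9.05% were called lower. Without STHdhQ111 vehicle replicate 1, which all contrasts share, each of the 4 Dlx1 calls ended (limma adjusted p from 0.0685 to 0.187). All 4 also ended when only the samples compared were fitted (0.0726 to 0.217), while both Dlx2 calls were kept.

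Foxp1 was called lower with cyproheptadine (9.82, 9.79 and 9.68, -0.22, limma adjusted p = 0.0217) and DKI (9.72, 9.83 and 9.67, -0.25, limma adjusted p = 0.00868), below all vehicle samples in both. Without STHdhQ111 vehicle replicate 1 neither passed (limma adjusted p = 0.135 and 0.0694), nor when only the samples compared were fitted (0.0914 and 0.0743), and the cyproheptadine call also ended without its replicate 3 (0.105). These shifts are smaller than the difference between the lines, and no sample reached the 9.39 of the highest STHdhQ7 sample. The highest Foxp1 values were with DOP, at 10.11, 10.23 and 10.18, with 0.19 and no call. Without haloperidol replicate 2 and the STHdhQ7 samples, Foxp1 was called higher with DOP at 0.19 (limma adjusted p = 0.0206) and lower with meclizine at -0.17 (limma adjusted p = 0.0227). In that fit Sox2 was called lower with DKI at -0.27 (limma adjusted p = 0.0334), where its samples were 4.42, 4.53 and 4.63. The Vim call with DOP ended there (limma adjusted p = 0.0583).

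Among 15 further progenitor genes, cyproheptadine gave 8 lower and 1 higher call, DKI 8 and 2, pizotifen 7 and 1, meclizine 5 and 2 and loxapine 5 and 1. The medians of the first 3 were -0.38, -0.29 and -0.27. Of all genes, 18.2% were called lower with cyproheptadine, 21.9% with DKI, 9.07% with pizotifen, 13.6% with meclizine and 11.8% with loxapine. Falls were not particular to the progenitor list. Of 14 mesenchymal genes, cyproheptadine gave 7 lower and 1 higher call, DKI 8 and 2, pizotifen 3 and 1, meclizine 7 and 1 and loxapine 1 and 1. The mesenchymal medians were -0.23, -0.37, -0.17, -0.22 and -0.09 in that order. In the fit of all samples, Nes, Sox2 and Pax6 were not called with any of these 5 compounds. With cyproheptadine the differences were 0.05 ± 0.34 (SE) for Nes, -0.06 ± 0.18 for Sox2 and 0.06 ± 0.14 for Pax6. For Nes and Sox2 a fall as large as the progenitor list medians could be missed at these errors. Without haloperidol replicate 2 and the STHdhQ7 samples, Sox2 was called lower with DKI at -0.27 (limma adjusted p = 0.0334). No other pair of these 3 genes and 5 compounds was called in that fit. The striatal patterning list gave 5 lower calls of 10 with cyproheptadine, 3 with DKI, 2 each with pizotifen and loxapine, and 0 with meclizine, which for DKI, pizotifen, loxapine and meclizine is within 2 genes of those shares. Foxp2 fell by 0.30 with cyproheptadine and by 0.32 with loxapine.

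Haloperidol, a dopamine receptor antagonist, gave no call among the 8 genes and 0% over all genes in the limma fit, with 3 of the 8 and 397 of all genes at an unadjusted p under 0.05. The 3 were Nes at 0.72, Sox2 at 0.48 and Pax6 at 0.44, the genes in which replicate 2 stood apart. The other 2 samples, at 4.88 and 5.03 for Nes, lie within the vehicle range for that gene. For Sox2 they were at 4.99 and 4.97, above the highest vehicle sample at 4.84. For Pax6 they were at 3.04 and 2.80, with vehicle samples from 2.73 to 2.88. Without replicate 2 the differences were -0.03 for Nes, 0.15 for Sox2 and 0.09 for Pax6, with no call. Selisistat, pizotifen and fingolimod phosphate gave 0 calls and 0 genes of the 8 at an unadjusted p under 0.05, with 0.515%, 17.9% and 0.0597% of all genes called. Nortriptyline and nicotinamide gave 0 calls and 1 gene each at that level, Vim, with 3.83% and 10.4% of all genes called.

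**Figure D5:**
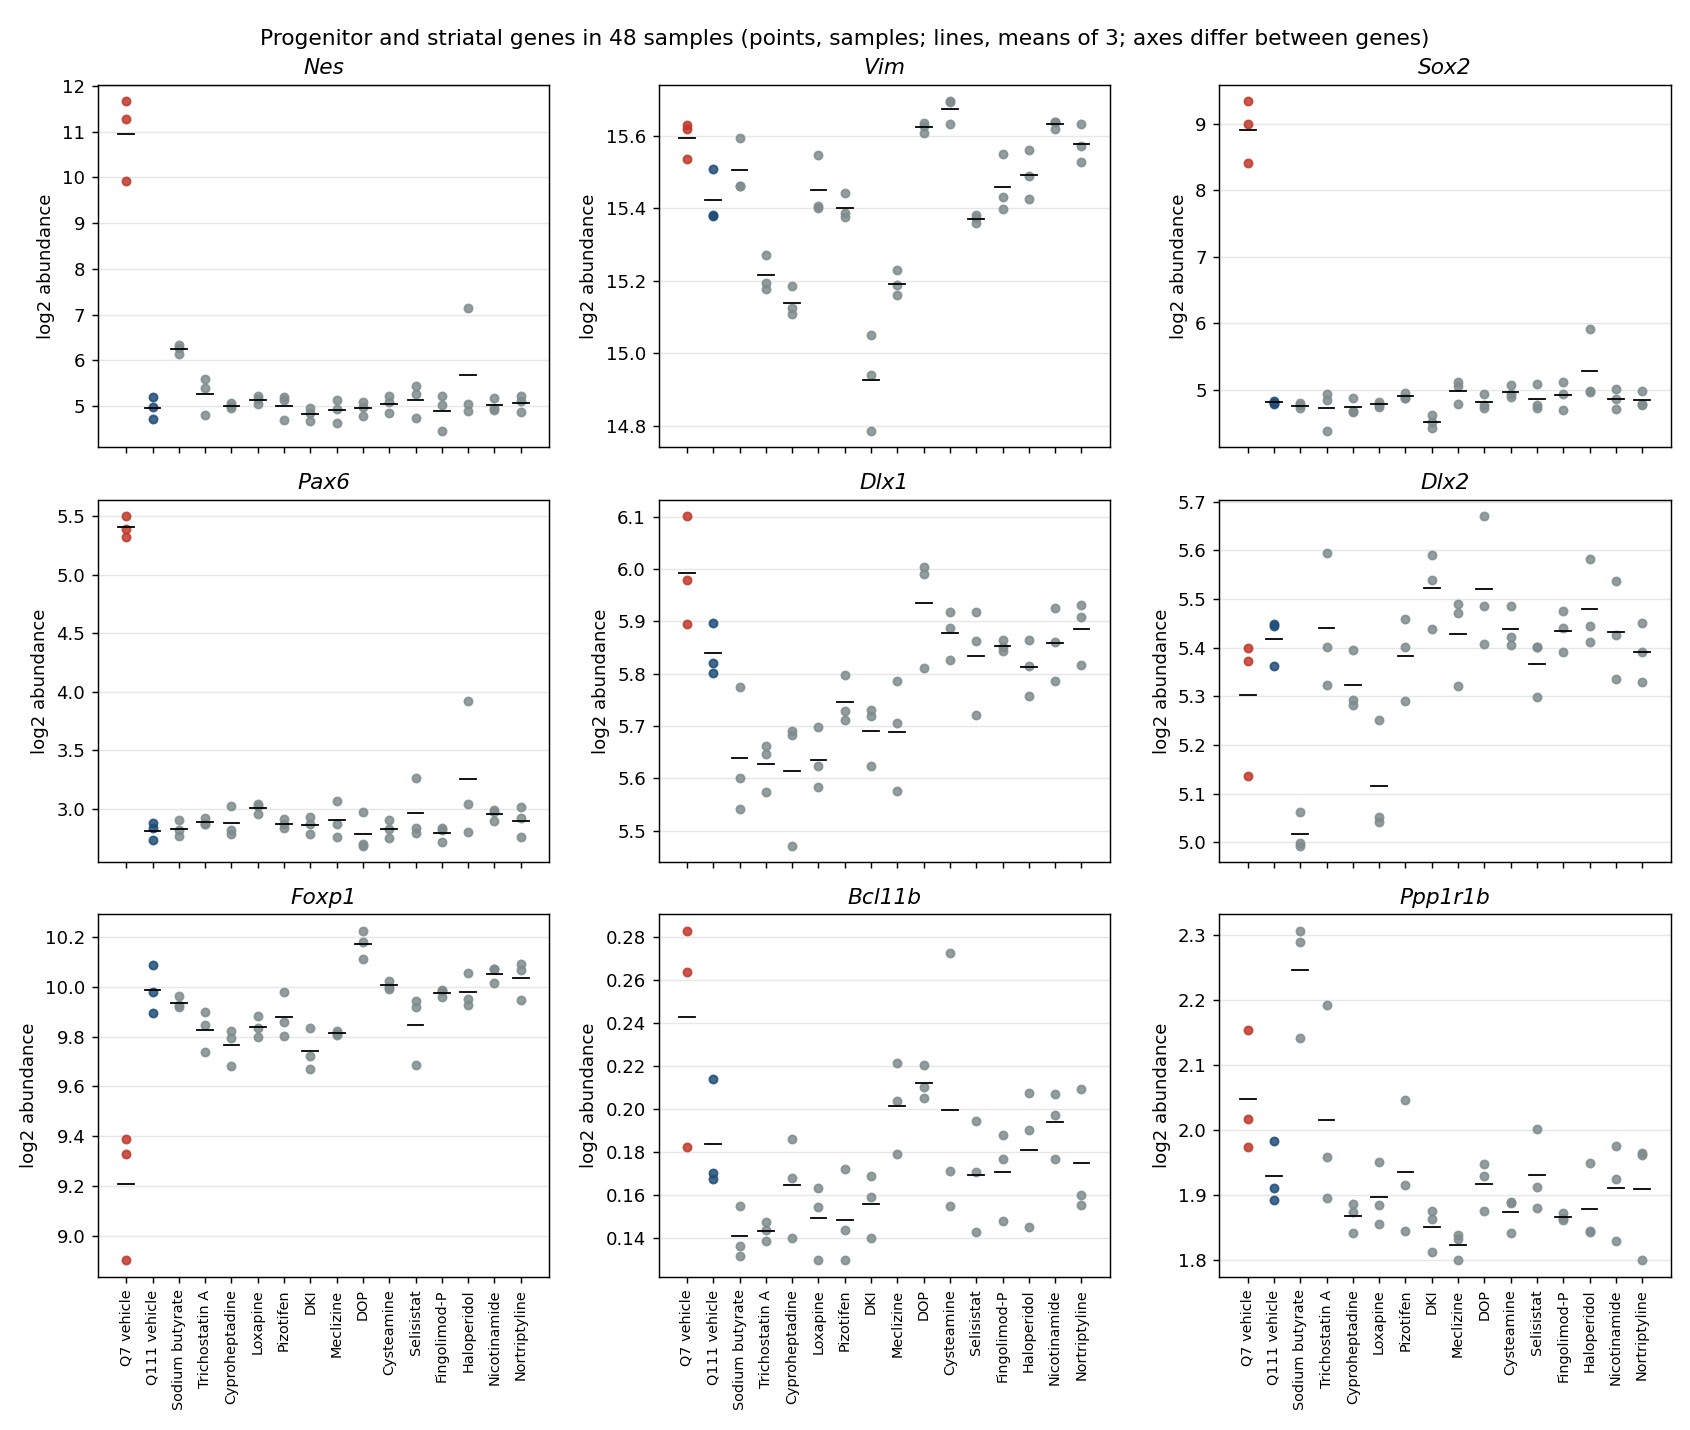
Log2 abundance of each of the 9 genes (panels, each with its own y axis) in the 48 samples, by condition on the x axis, with points for samples and a line at the mean of 3. STHdhQ7 samples (red) lie apart for Nes, Sox2, Pax6 and Foxp1, butyrate samples are high for Nes and Ppp1r1b and low for Dlx2, and 1 haloperidol point is high for Nes, Sox2 and Pax6.

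Tested together over the 15 STHdhQ111 conditions, Nes (limma adjusted p = 0.0256), Vim (2.88e-10), Dlx1 (0.000184), Dlx2 (9.96e-06), Foxp1 (0.000118) and Ppp1r1b (2.41e-05) varied, and Sox2 (0.0954) and Pax6 (0.232) did not pass. The count of 6 of 8 compares with 80.8% of all genes. Haloperidol replicate 2 was in this fit, so the results for Sox2 and Pax6 hold with that sample included. A count of members called without it and the STHdhQ7 samples is given with the alternatives at the end. The range of the condition means was 1.42 for Nes, 0.75 for Vim, 0.50 for Dlx2, 0.43 for Foxp1, 0.42 for Ppp1r1b and 0.32 for Dlx1. For Sox2 it was 0.76 with and 0.46 without haloperidol replicate 2, and for Pax6 0.47 and 0.22.

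The study parts 5 compounds into a Group A of pizotifen, cyproheptadine and loxapine and a Group B of meclizine and DKI. Group A minus Group B was 0.27 ± 0.048 for Vim (limma adjusted p = 1.33e-05) and -0.20 ± 0.051 for Dlx2 (limma adjusted p = 0.00141), and the other 6 genes did not pass. The share of all genes called was 41.3%. Vim was lower in Group B, and Dlx2 in Group A. Both calls were kept in all alternatives. Within Group A the compounds were uneven, since Vim was 15.44, 15.38 and 15.39 with pizotifen and 15.55, 15.41 and 15.40 with loxapine, near the vehicle samples, and below them with cyproheptadine. Dlx2 was called against vehicle with loxapine (-0.30) and not with cyproheptadine (-0.10) or pizotifen (-0.03), and in Group B its differences were 0.10 with DKI and 0.01 with meclizine.

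The genes whose condition means followed each member most closely over the 15 STHdhQ111 conditions are given as a description. Ppp1r1b was followed by 5031414D18Rik, Cldn9 and Coro1a (r = 0.97 each), Vim by Efemp2 (0.96), Clic1 and Casp8, and Foxp1 by Il18 (0.94) and Trim30d (0.93). Dlx1 was followed by Fam13c (0.92), Sulf2 and Runx1t1, and Dlx2 by Bmi1 (0.87), N4bp2 and Mex3b. For Nes the list was Chst3, Celsr2 and Fam132b (0.95, 0.93 and 0.92) with all samples and Trpv2, Mgarp and Asic1 (0.99, 0.98 and 0.96) without haloperidol replicate 2. Sox2 went from Kcnip1, Fndc1 and Snap91 to Cobll1, Man1c1 and Rhoa, and Pax6 from Adam12, Rxfp3 and Fam150a to Slc1a7, Mctp2 and Zfp692, so the neighbours of all 3 changed when 1 sample was left out. The points share collection days and libraries, and for Nes and Ppp1r1b the butyrate mean lies far from the rest.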

How the data were processed

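RNA-Seq of polyA RNA was analysed in 48 samples, and groups, doses, collection days and times came from the labels. Single-end reads were trimmed by the authors in Trimmomatic 0.36 and quantified with RSEM against the transcriptome of GRCm38.p5, and DESeq2 served for their own tests. The deposited file holds normalized abundances by the authors, read here as log2 values because they run from -2.34 to 18.62 and sum to similar totals on the linear scale (highest over lowest 1.11). The transformation is not given in the sources used here, and since no counts could be had, depth is unknown and count models were not used.

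The 9 members and the 9 gene lists were chosen with earlier results of these data known. The named genes are the members in every condition, listed paralogs or partners, up to 4 called genes per list with the largest difference between STHdhQ7 and STHdhQ111 cells, and the 3 genes most like each member. Some genes that this rule or the lists hold are not reported here by name. Other list genes given near the bottom of the table or as highly abundant were chosen after their values were seen. With limma 3.58.1 in R 4.3.3, 16 conditions and the collection day were fitted to all 48 samples for 13409 genes (with a symbol and a mean of at least 1), with 30 residual degrees of freedom and variances trended on abundance. All tests were two-sided, with p-values adjusted by the Benjamini-Hochberg method. A single-gene exact permutation test of 3 against 3 samples cannot go below p = 0.1. Replicates of a condition correlated at 0.996 to 0.999.

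Replicate numbers equal collection days apart from replicate 1 of cyproheptadine and DKI, which were collected on day 3. Deviations from the condition means of same-numbered STHdhQ7 and STHdhQ111 samples correlated at -0.13, 0.04 and -0.14, and over all samples at -0.055 within and 0.0279 between collection days. Steps were tested on simulated data with differences planted between STHdhQ7 and STHdhQ111 vehicle samples. Of 50 planted at 0.25 log2 units, 24 were called, and of 50 at 0.5, 48 were called. All 50 were called at 1 and at 2 log2 units. In that simulation differences of 0.25 were often missed. It changed far fewer genes than the 7483 called between the lines, which makes the adjusted threshold stricter there. Its recovery rate therefore does not carry over to the comparison of the lines.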

Additional observations from a re-analysis of the deposited data

How the results depend on the processing

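Of the 5 genes called between STHdhQ7 and STHdhQ111 vehicle cells, Nes, Sox2, Pax6 and Foxp1 were called in every alternative that tested them. The count ran from 4 to 6 over other settings and from 4 to 7 with 1 sample left out, and 7483 genes called in all became 6849 to 7000. Pax6 and Ppp1r1b are not tested under the stricter minimum mean of 5. The 15 calls over 14 compounds became 7 when only the samples compared were fitted, a fit with fewer residual degrees of freedom, and 13 to 17 under the other settings. With 1 sample left out they ran from 7, without STHdhQ111 vehicle replicate 1, to 17, and the 31895 gene and compound pairs called ran from 21058, without the same sample, to 35575. The cause was not tested. Over 15 STHdhQ111 conditions, 5 to 8 members were called with 1 sample left out. Without haloperidol replicate 2 and the STHdhQ7 samples, an alternative chosen after seeing the data, as was that sample's removal from the other reference and from the likeness lists, 17 pairs and 7 members were called. Between Groups A and B, 2 members were called, or 3 when only their samples were fitted.

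The replicate number as a block in place of the collection day gave 5, 15, 6 and 2 called members or pairs in the 4 comparisons, as with the day, and no block gave 5, 17, 6 and 2. Of the single-gene values under alternatives, 1949 kept their side of the threshold, 52 fell short of it and 23 newly passed it. The sign changed in 107 of the 2024 values, all of genes not called as reported, and in 0 of called genes. Between the lines, the Vim call ended without STHdhQ111 replicate 1 (limma adjusted p = 0.137) or 2 (0.14) and without STHdhQ7 replicate 2 (0.107) or 3 (0.131). Without STHdhQ111 replicate 2, the Vim calls with cysteamine (0.132) and DOP (0.171) and the Dlx1 calls with loxapine (0.062) and trichostatin A (0.0796) ended, and without STHdhQ111 replicate 3 the Vim call with meclizine (0.101) and the Dlx1 call with trichostatin A (0.0594). With the compounds' own samples left out, the Vim calls with cysteamine and DOP and the Dlx1 call with trichostatin A ended for each of their 3 samples (adjusted p up to 0.153, 0.124 and 0.132). The Dlx1 calls ended without replicate 1 of cyproheptadine (0.14), replicate 1 or 2 of loxapine (0.135 and 0.106) and replicate 1 or 2 of sodium butyrate (0.0931 and 0.166), the Foxp1 call without cyproheptadine replicate 3 (0.105) and the Vim call without meclizine replicate 2 (0.0597). The compression of low values limits what can be said of Bcl11b, Ppp1r1b and Pax6.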
